A study of Mus musculus with 12 samples.

Results

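Voltage-gated sodium channels carry the rising phase of the action potential in sensory neurons, and 9 genes of their subunits were followed here out of 44345 gene names counted. They are 6 pore-forming alpha subunits (Scn1a, Scn3a, Scn8a, Scn9a, Scn10a and Scn11a) and 3 auxiliary beta subunits (Scn2b, Scn3b and Scn4b). The genes were taken by symbol, and all 9 had a row in both count tables and passed the filter on low counts in every comparison. RNA came from L4 to L6 dorsal root ganglia (DRG) of the sciatic nerve in C57BL/6 mice of 5 to 8 weeks of age, which lived for 10 days either in an enriched environment (EE) or under standard housing (SH). Enrichment means a cage with more objects and stimuli than usual. Each housing was sampled as whole ganglia (2 mice pooled per library) and as large neurons (diameter at least 30 µm), laser-cut out of stained sections (3 mice per library), which gave 12 libraries in 4 groups of 3. The labels name no allele and no agent for any group. Column headers of the whole-ganglion tables, unlike those of the captured tables, carry the word Sham, and whether those mice had a sham procedure is not given in the sources used here. Whether different mice supplied each library within a group is not stated, and p-values therefore reflect only how these libraries spread, possibly for technical reasons.

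An alpha subunit forms the sodium-selective pore and its voltage sensors, and beta subunits are single-pass membrane proteins that alter gating, surface level and adhesion. In DRG, Scn9a, Scn10a and Scn11a are known from small-diameter nociceptors: Scn9a amplifies small depolarisations, Scn10a carries most of the action potential upstroke in those cells, and Scn11a carries a persistent current near the resting potential. Scn1a and Scn8a are known from large myelinated neurons, Scn8a as the main channel of nodes of Ranvier, and Scn4b is a beta subunit linked to resurgent current in large neurons. Scn3a is mainly an embryonic channel.

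The 6 alpha subunits differ at a residue of the first pore loop that sets their block by tetrodotoxin, the puffer fish toxin. An aromatic residue there gives a sensitive channel and a serine a resistant one. The coding sequence around that residue is shown for 5 of them because it splits the channels along a pharmacological line that only partly follows cell size. Each window has 30 bases of a GENCODE vM21 transcript on the coding strand, lies in exon 9 of its transcript, and has the codon of that residue in capitals.
Scn3a: atgactcaagacTACtgggagaacctttac
Scn8a: atgactcaggacTACtgggagaacttatac
Scn9a: atgactcaggacTACtgggagaacctttat
Scn10a: atgacgcaggacTCCtgggaacggctgtac
Scn11a: atgactcaagacTCCtgggagaagctttat
The capital codon encodes tyrosine in Scn3a, Scn8a and Scn9a and serine in Scn10a and Scn11a. On GRCm38, the assembly of the mm10 build named in the submitters' processing notes, the windows lie at chr2:65521798-65521827 (Scn3a), chr15:100971626-100971655 (Scn8a, plus strand), chr2:66548986-66549015 (Scn9a), chr9:119666372-119666401 (Scn10a) and chr9:119805665-119805694 (Scn11a), all but Scn8a on the minus strand. Both serine channels are neighbours on chromosome 9, Scn10a from 119608456 to 119719322 and Scn11a from 119753759 to 119825456. Scn3a, Scn1a and Scn9a lie in a cluster on chromosome 2 between 65457118 and 66634962. Scn3b (from 40269217), Scn2b (from 45117782) and Scn4b (from 45138395) are on the plus strand of chromosome 9. Exons of Scn9a share 180 bases, 1.41% of their length, with the antisense gene Gm13629. Whether the counting used strand is not given in the sources used here. No other member shares exon bases with another annotated gene.

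Between 11343579 and 17036481 reads lay in genes per whole-ganglion library and between 19296230 and 29434351 per captured library, and no member had fewer than 46 reads in any library. Markers of sensory neurons at large (11 genes, among them Tubb3, Prph, Uchl1 and Snap25) summed to 6410 to 7224 CPM (read counts scaled to library size) in captured libraries and 9115 to 9643 CPM in whole ganglia, and none was at 0 in any group. The Schwann cell list (14 genes, among them Pmp22, Mbp and Drp2) summed to 1063 to 1486 CPM in captured and 6715 to 9733 CPM in whole-ganglion libraries, so the captured material still held RNA of myelinating glia. The nociceptor list (29 genes) also stayed present, at 3142 to 4490 CPM in captured and 4333 to 4824 CPM in whole libraries, so the captured material is not free of nociceptor transcripts. In SH the large-neuron list (24 genes) was lower in captured libraries, at 9471 to 11598 CPM, than in whole ones, at 16047 to 17031 CPM. In EE it summed to 11879 to 16189 CPM in captured and 14819 to 15705 CPM in whole libraries. These sums therefore do not show large-neuron transcripts enriched in the captured material. They rest largely on neurofilament genes. Mean CPM in captured and whole SH libraries was 4426 and 5062 for Nefl, 1909 and 2512 for Nefh, and 1881 and 5811 for Nefm. For Kcna1 it was 658 and 626. Library kit differed with capture, so the parts of kit and capture in these sums cannot be told apart. Captured SH replicate 2 stood apart in skeletal muscle genes (11 genes, led by Myh4, Myh1, Tnnt3 and Ckm), with 701 CPM against 3.93 to 13.1 CPM in the other captured libraries. Captured EE replicate 1 was the deepest library and the only one of lane 1. Lane 2 likewise held a single library, captured SH replicate 2. In bulk samples, fewer cells of a type and less RNA per cell cannot be told apart.

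Levels of different genes were compared as CPM per kilobase of merged exons. In whole ganglia of SH mice, Scn4b at 89.1 ± 1.39 CPM per kilobase (SD, n = 3) and Scn10a at 86.7 ± 9.38 were at the top, with overlapping libraries. Scn11a followed at 50.8 ± 2.46 and Scn9a at 25.9 ± 1.59, each separate from its neighbours in the order. The channels of large neurons lay lower, Scn1a at 13.1 ± 0.61 and Scn8a at 12.6 ± 0.38 CPM per kilobase, again with overlapping libraries. Scn3b stood just above them at 14.8 ± 0.41 and Scn2b just below at 10.3 ± 0.28. Scn3a, the embryonic channel, was last at 0.349 ± 0.063 CPM per kilobase. The authors' deposited FPKM values gave another order at the top, with a mean of 107 for Scn10a and 89.6 for Scn4b in the same SH libraries, and put Scn8a (16.4) above Scn3b (14.5) and Scn1a (13.2). The length behind those FPKM values is not given in the sources used here.

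In captured neurons of SH mice the same scale put the channels known from nociceptors first. Scn11a reached 151 ± 19.5 CPM per kilobase, Scn10a 135 ± 17.5 and Scn9a 114 ± 8.46, and libraries overlapped between neighbours. Scn4b followed at 67.8 ± 5.57, Scn1a at 28.4 ± 3.18 and Scn8a at 20.7 ± 1.69, each separate from the next. Scn3b (18.2 ± 1.92), Scn2b (14.8 ± 1.11) and Scn3a (1.77 ± 0.074) ended the order. Transcripts of Scn10a and Scn11a were thus present in the material captured as large neurons, at levels above those of Scn1a and Scn8a.

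**Figure D1:**
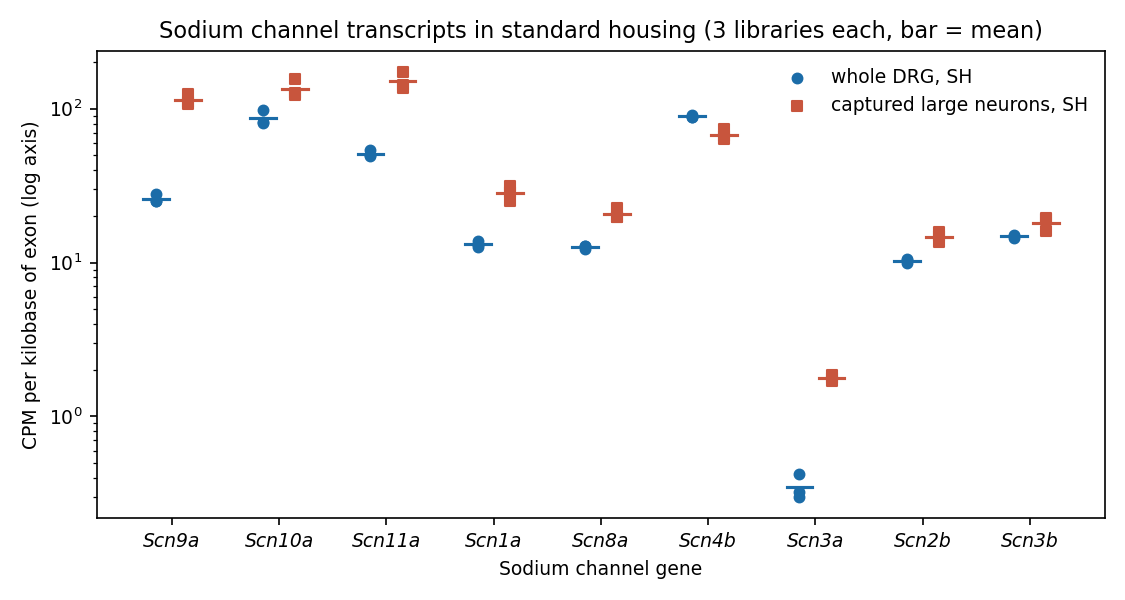
Levels of the 9 subunits in standard housing as CPM per kilobase of merged exons on a log axis, for whole ganglia and captured neurons; points are libraries and bars their means. Scn3a is lowest in both preparations, and Scn4b is the only subunit with a higher level in whole ganglia.

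Captured and whole libraries of SH mice were then set side by side gene by gene, as a description without a test, since capture and library kit (RiboZero ScriptSeq against TruSeq mRNA) cannot be told apart. Of the 9 members, 8 had CPM above whole ganglia in every captured library and 1, Scn4b, had CPM below. Over the 13721 genes with at least 1 CPM in both groups, 33% lay wholly above and 46.3% wholly below, with a median ratio of captured to whole of 0.898. Scn3a was 5.08-fold and Scn9a 4.41-fold higher in captured neurons, Scn11a 2.97-fold, Scn1a 2.16-fold, Scn8a 1.64-fold and Scn10a 1.55-fold. Scn2b was 1.43-fold and Scn3b 1.23-fold higher, and Scn4b was 1.31-fold lower. The 3 channels known from nociceptors did not share a ratio: the CPM of Scn11a per CPM of Scn10a was 0.409 to 0.461 in the 6 whole-ganglion libraries and 0.752 to 0.864 in the 6 captured ones.

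In whole ganglia, none of the 9 subunits was called different between EE and SH (edgeR's quasi-likelihood test, Benjamini-Hochberg adjustment over 15845 genes, threshold 0.05), where 0.00631% of all tested genes were called. At an unadjusted p under 0.05 the members again numbered 0, against 2.9% of all genes. Scn10a, the main nociceptor channel, had 653, 643 and 777 CPM in SH replicates 1 to 3 and 769, 660.5 and 681 CPM in EE replicates 1 to 3. The groups overlapped, and the log2 fold change of EE over SH was 0.03 with a 95% interval of −0.15 to 0.20. Scn1a, of large neurons, had 154, 144 and 141 CPM in SH and 167, 133 and 135 CPM in EE. Those groups overlapped too, with a log2 fold change of −0.02 and an interval of −0.20 to 0.17.

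For the other channels known from nociceptors, Scn11a and Scn9a, the log2 fold changes in whole ganglia were 0.06 (−0.12 to 0.23) and 0.07 (−0.14 to 0.28). For Scn8a the value was 0.01 (−0.17 to 0.18) and for Scn4b −0.04 (−0.18 to 0.09). Scn2b was at 0.04 (−0.11 to 0.18), and the scarce Scn3a had the widest interval, at −0.002 (−0.43 to 0.43). Scn3b, a beta subunit with broad neuronal expression, had 82.7, 78.3 and 81.0 CPM in SH and 92.5, 82.7 and 92.8 CPM in EE. It was the single member whose groups did not overlap in whole ganglia, EE being above SH, as in 3.19% of all genes. Its log2 fold change was 0.15 ± 0.07 (SE; adjusted p = 0.9996 by edgeR). With the shared lane as a replicate block, 0 members and 0.202% of all genes were called, and Scn3b stayed at 0.15 (adjusted p = 0.893 by edgeR).

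In captured neurons, transcripts of the nociceptor channels were lower and those of the large-neuron channels higher in EE than in SH, but none of the 9 differences passed the adjusted threshold in all 6 libraries. Called genes made up 0.0185% of the 16186 tested. At an unadjusted p under 0.05 there were 5 members (Scn9a, Scn10a, Scn11a, Scn1a and Scn4b), where 15.9% of all genes reached it. The groups of 2 members, Scn1a and Scn4b, lay apart with EE above SH, as in 10.2% of all genes, and those of 2 others, Scn10a and Scn11a, lay apart with EE below SH, as in 10.9%. The median log2 fold change was −0.45 over the 3 nociceptor channels, 0.26 over Scn1a, Scn8a and Scn4b, and −0.17 over all 9, against −0.0006 over all genes tested.

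Scn10a had 980.5, 1234 and 1005 CPM in SH replicates 1 to 3 and 853, 735 and 771 CPM in EE replicates 1 to 3. Every EE library was below every SH library, with SH replicate 2 the highest. The means were 1073 ± 139.7 and 786 ± 60.7 CPM (SD, n = 3), a log2 fold change of −0.45 ± 0.095 (SE; adjusted p = 0.105 by edgeR). Scn11a, its neighbour on chromosome 9, had 847, 1028 and 812 CPM in SH and 725, 559 and 580.2 CPM in EE. Again no EE library reached the lowest SH library, and the log2 fold change was −0.53 ± 0.11 (SE; adjusted p = 0.116 by edgeR). Scn9a, whose tyrosine codon marks a tetrodotoxin-sensitive channel, had 1415, 1581 and 1379 CPM in SH and 1401, 1131 and 1171 CPM in EE. EE replicate 1 lay among the SH libraries, so the groups overlapped, and the log2 fold change was −0.24 ± 0.090 (SE; adjusted p = 0.233 by edgeR).

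Scn1a had 318, 280.2 and 351 CPM in SH and 381, 455 and 447 CPM in EE. All EE libraries were above all SH libraries, with a log2 fold change of 0.43 ± 0.096 (SE; adjusted p = 0.120 by edgeR). Scn4b had 331, 314 and 368 CPM in SH and 371, 436 and 412 CPM in EE. Its groups were separated by a narrow margin between SH replicate 3 and EE replicate 1, and the log2 fold change was 0.26 ± 0.082 (SE; adjusted p = 0.177 by edgeR). Scn8a, the nodal channel, had 312, 309.7 and 357 CPM in SH and 307, 419.8 and 426 CPM in EE. EE replicate 1 was below all SH libraries while the other two EE libraries were above them, which left a log2 fold change of 0.24 ± 0.12 (SE; adjusted p = 0.362 by edgeR).

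The remaining subunits showed the same split of the EE libraries. Scn3b had 104, 107 and 87.3 CPM in SH and 104, 66.1 and 65.6 CPM in EE. Scn2b, a beta subunit that binds alpha subunits through a disulphide bond, had 73.4, 69.5 and 63.2 CPM in SH and 76.8, 56.1 and 49.9 CPM in EE. In both genes EE replicate 1 lay with or above the SH libraries and EE replicates 2 and 3 lay below them. Their log2 fold changes were −0.34 ± 0.16 and −0.17 ± 0.14 (SE; adjusted p = 0.341 and 0.591 by edgeR). Scn3a had 22.99, 22.03 and 21.2 CPM in SH and 23.1, 18.1 and 17.5 CPM in EE, a log2 fold change of −0.17 (95% interval −0.43 to 0.09).

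**Figure D2:**
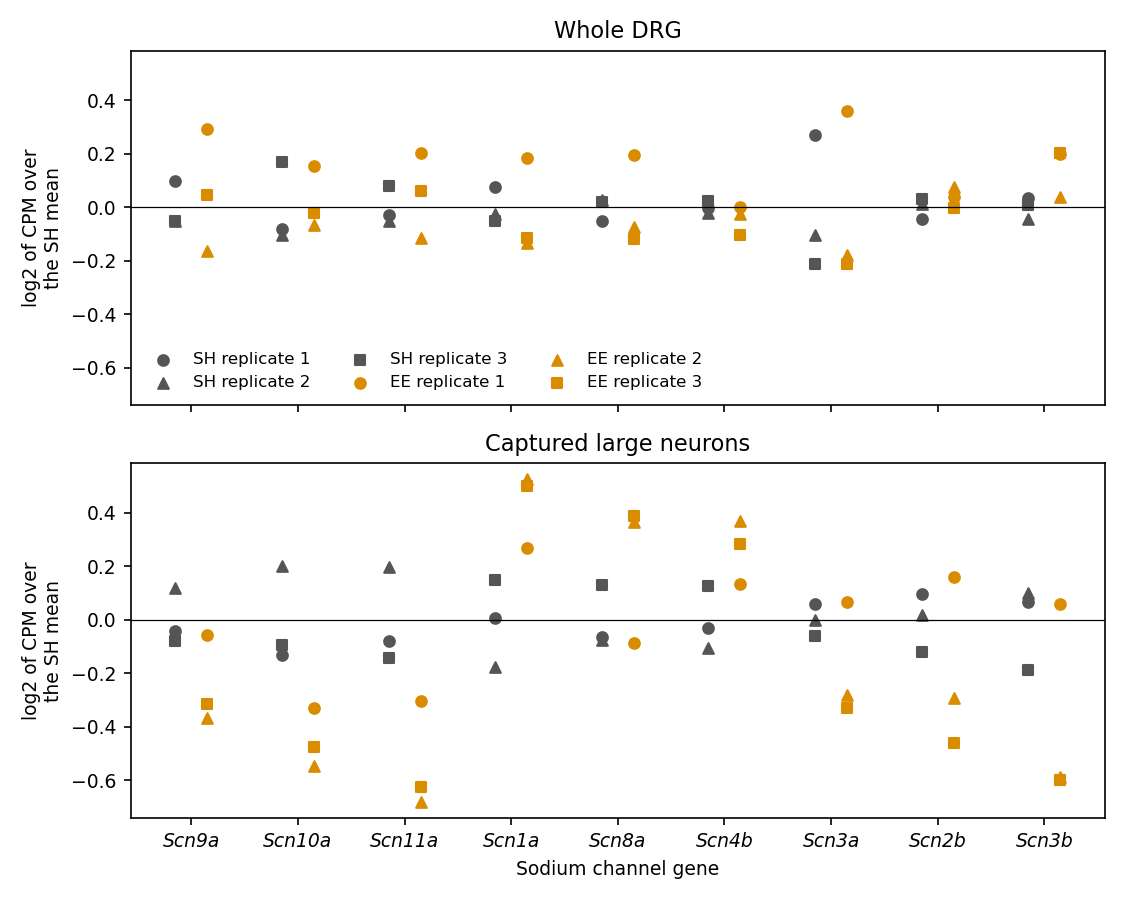
Log2 of the CPM of each of the 9 subunits over its SH mean in the same preparation, for whole ganglia (top) and captured neurons (bottom); each point is 1 library, coloured by housing and shaped by replicate. In captured neurons EE replicate 1 lies nearer to the SH mean than the other EE libraries do, for example at 307 CPM of Scn8a against 419.8 and 426 CPM.

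With edgeR and the filter on low counts, the calls depended on captured EE replicate 1. Some other fits, given below, made calls with that library kept. Without that library, 8 of the 9 subunits were called, where 3.64% of all genes were called by the same fit. Scn9a, Scn10a, Scn11a, Scn2b and Scn3b fell, with log2 fold changes of −0.34, −0.51, −0.65, −0.38 and −0.59 (adjusted p = 0.0288, 0.0203, 0.00967, 0.0479 and 0.0117 by edgeR). Scn1a, Scn8a and Scn4b rose, by 0.51, 0.38 and 0.33 on the log2 scale (adjusted p = 0.0145, 0.0254 and 0.0453 by edgeR). Scn3a, at −0.31, was the exception (adjusted p = 0.127 by edgeR).

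Lanes were spread unevenly over the captured libraries, so the 2 SH and 2 EE libraries of lane 3 were also compared alone. That subset lacks EE replicate 1 and SH replicate 2, and it called the same 8 subunits, where 4.06% of all genes were called (1.88% higher and 2.18% lower). Scn10a fell by 0.40, Scn11a by 0.54 and Scn9a by 0.28 on the log2 scale (adjusted p = 0.00114, 0.000403 and 0.00774 by edgeR). Scn1a rose by 0.43, Scn8a by 0.34 and Scn4b by 0.28 (adjusted p = 0.00168, 0.0129 and 0.0300 by edgeR). Scn3b fell by 0.54 and Scn2b by 0.37 (adjusted p = 0.00319 and 0.0395 by edgeR), and Scn3a stood at −0.31 (adjusted p = 0.186 by edgeR). Without SH replicate 2, the library with muscle transcripts, and with EE replicate 1 kept, none was called, and Scn10a, Scn11a and Scn1a had log2 fold changes of −0.34, −0.42 and 0.35.

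Some other fits of all 6 captured libraries made calls. DESeq2 called Scn10a, Scn11a and Scn1a (adjusted p = 0.00121, 0.000697 and 0.00217), where 3.12% of all genes were called. The edgeR fit without a filter on low counts called those 3 genes with Scn4b and Scn3b, where 2.48% were called. Limma on log2 of the authors' second table with 1 added called Scn10a, Scn11a and Scn1a both with a minimum mean (0.594% of all genes called) and without one (0.842%). With 0.1 added in place of 1 and a minimum mean, limma called 0 members, where 0.194% of all genes were called. Scn10a then had an adjusted p of 0.0574 and Scn1a of 0.0838 by limma. Limma on the counts, and edgeR with other scalings or with length and GC offsets, also called 0 members. In each of these fits the nociceptor channels were lower and Scn1a higher in EE.

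**Figure D3:**
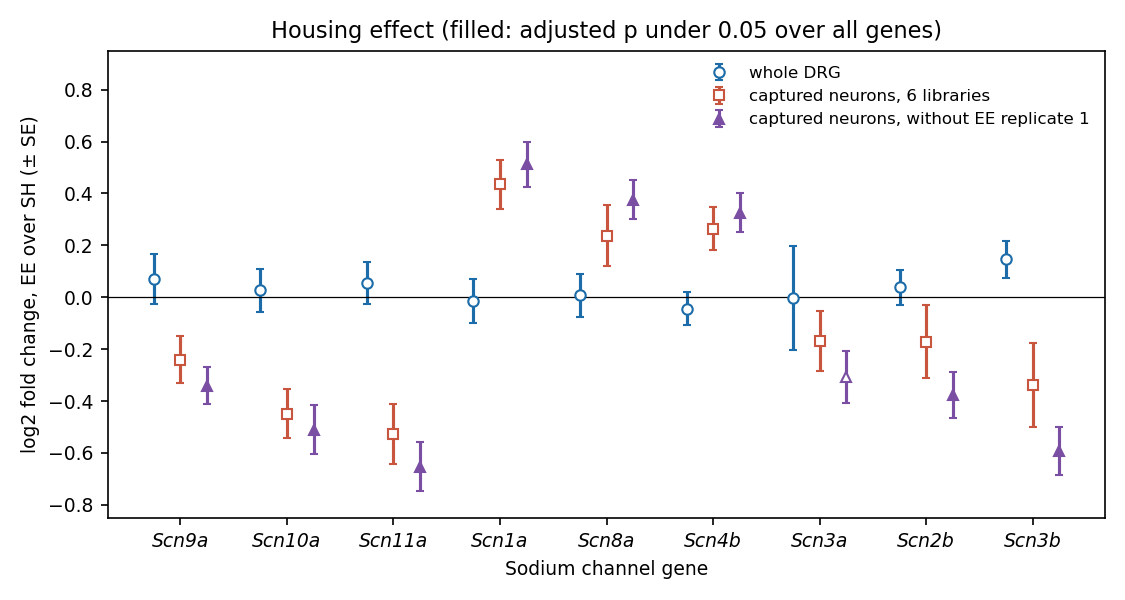
Log2 fold change of EE over SH for each subunit in whole ganglia, in captured neurons with all 6 libraries, and in captured neurons without EE replicate 1; points are edgeR estimates, bars ± SE, and filled points are called at an adjusted p of 0.05. No point of the fits with all libraries is filled, and without EE replicate 1 all but Scn3a (−0.31) are.

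Markers of the neuron classes were read beside the channels in the captured libraries, first with all 6 libraries, where 0.0185% of all genes were called. The nociceptor list had negative log2 fold changes in 25 of 29 genes (median −0.39), with 1 called, Mrgprb5, an itch-related receptor gene that fell by 1.05 (adjusted p = 0.0119 by edgeR). Its summed level was 4108, 4490 and 3833 CPM in SH and 3921, 3142 and 3291 CPM in EE, and its most abundant genes had SH and EE means of 807 and 637 CPM (Ret), 690.2 and 485 CPM (Plxnc1), 288 and 232 CPM (Kcnip4), and 427 and 511 CPM (Calca). The list of large-neuron genes had positive values in 22 of 24 (median 0.36, 0 called), and its sums were 10789.9, 9471 and 11598 CPM in SH and 11879, 15853 and 16189 CPM in EE. Nefl (4426 to 6136 CPM), Nefh (1909 to 2867 CPM), Nefm (1881 to 2735 CPM) and Kcna1 (658 to 806 CPM) led it. Here too EE replicate 1 stood nearest to SH, as in the channels. In the lane 3 libraries, where 1.88% of all genes were called higher and 2.18% lower, 19 of the 29 nociceptor genes fell and none rose, and 12 of the 24 large-neuron genes rose and none fell. In whole ganglia, where 0.00631% of all genes were called, the large-neuron list was negative in 14 of 24 genes with 0 called. Its sums there, 14819 to 15705 CPM in EE, lay below the 16047 to 17031 CPM in SH. The nociceptor list was positive in 16 of 29 genes there, with 0 called and overlapping sums. No gene of either list was at 0 in any group, and the part of neuron class in the channel differences was not tested. These lists, like the other lists here, were chosen with earlier results of these data known. Their counts therefore add no support of their own.

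Markers of other cells were also read beside the channels. The satellite glia list (15 genes, among them Apoe and Glul) was positive in 13 genes with 1 called, Fabp7, which rose by 0.80 (adjusted p = 0.0322 by edgeR), and summed to 2802 to 3096 CPM in SH and 3362 to 3753 CPM in EE. The Schwann cell list was positive in 4 of 14 genes, with sums of 1185 to 1486 CPM in SH and 1063 to 1362 CPM in EE. The macrophage list (12 genes, led by Mrc1 and Csf1r) was positive in 10 genes and summed to 42.6 to 63.3 CPM in SH and 56.5 to 69.7 CPM in EE. Endothelial and mural genes (12, led by Rgs5 and Flt1) summed to 440.3 to 518 CPM in SH and 346 to 467 CPM in EE, fibroblast genes (10, led by Apod and Dcn) to 649 to 914 and 902 to 961 CPM, and red cell genes (6 in the tables, led by Hba-a2) to 19.4 to 35.1 and 20.4 to 33.7 CPM. With all 6 libraries, Fabp7 was the single called gene of these lists of non-neuronal cells, where 0.0185% of all genes were called. In the lane 3 libraries 1.88% of all genes were called higher and 2.18% lower. There 4 of 15 satellite glia genes rose, 1 of 12 endothelial or mural genes fell, and 1 of 10 fibroblast genes rose and 1 fell. The Schwann cell, macrophage and red cell lists had no call in lane 3. No gene of these lists was at 0 in a group, and their part in the channel differences was not tested.

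Ratios within a library do not depend on how libraries were scaled. Scn10a per Scn1a was 3.08, 4.40 and 2.86 in captured SH replicates 1 to 3 and 2.24, 1.61 and 1.72 in captured EE replicates 1 to 3, the groups lying apart. Scn11a per Scn1a was 2.66, 3.67 and 2.31 in SH and 1.90, 1.23 and 1.30 in EE, and Scn9a per Scn1a was 4.45, 5.64 and 3.93 in SH and 3.68, 2.48 and 2.62 in EE, also apart. For Scn10a and Scn11a this separation follows from the CPM of the single genes, whose groups already lay apart in opposite directions from Scn1a. It therefore adds no support of its own. For Scn9a the groups overlapped in CPM and those of Scn1a lay apart, so the separation of this ratio rests in part on Scn1a. How often ratios of other gene pairs lie apart was not counted. In whole ganglia Scn10a per Scn1a was 4.23, 4.46 and 5.49 in SH and 4.62, 4.95 and 5.03 in EE, which overlapped. The mean log2 CPM of the 3 nociceptor channels exceeded that of Scn1a, Scn8a and Scn4b by 1.72, 2.07 and 1.54 in captured SH and by 1.44, 0.83 and 0.91 in captured EE. In whole ganglia the same difference was 0.74 to 0.87 in SH and 0.77 to 0.94 in EE.

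Taking the 6 alpha subunits as a pool (the sum of their CPM per kilobase), the tetrodotoxin-resistant channels with the serine codon, Scn10a and Scn11a, made up 70.8 to 74.8% of the pool in whole ganglia in SH and 71.6 to 73.2% in EE. In captured neurons they made up 62.3, 65.8 and 61.6% in SH and 58.1, 54.2 and 54.8% in EE. Scn1a made up 6.69, 5.04 and 7.38% of the pool in captured SH and 8.66, 11.9 and 11.3% in captured EE. The share of Scn9a differed less, at 24.8 to 25.95% in captured SH and 25.7 to 27.8% in captured EE, with overlapping groups. These shares describe the libraries and carry no test.

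**Figure D4:**
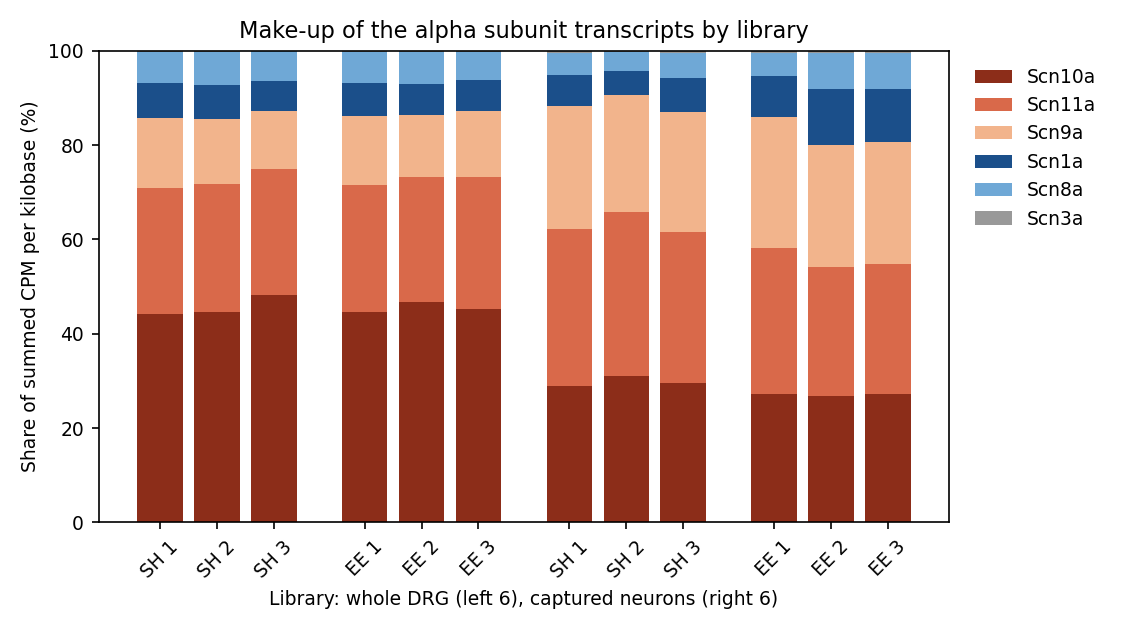
Share of each alpha subunit in the summed CPM per kilobase of the 6 alpha subunits, 1 bar per library, from 0 to 100%. Scn10a and Scn11a together fill 54.2 to 58.1% of the captured EE bars and 61.6 to 65.8% of the captured SH bars.

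Whether the housing effect itself differed between preparations was tested by the interaction over all 12 libraries. Capture, library kit, read length, RNA integrity, lanes and mice per library differed together between preparations. So did the word Sham in the column headers. The parts of these in such a difference cannot be told apart. The fit also shared each gene's dispersion between preparations, although captured libraries varied more. None of the 9 subunits was called, nor was any gene (0% of 17412). At an unadjusted p under 0.05 there were 6 members, where 11.7% of all genes reached it. The effect in captured neurons minus that in whole ganglia was −0.59 on the log2 scale for Scn11a (adjusted p = 0.208 by edgeR), −0.49 for Scn10a (0.237), −0.50 for Scn3b (0.335) and −0.32 for Scn9a (0.414). It was 0.44 for Scn1a (adjusted p = 0.261 by edgeR) and 0.30 for Scn4b (0.305). DESeq2 called Scn11a (−0.60, adjusted p = 0.0214), where 0.683% of all genes were called. Without a filter on low counts edgeR called Scn10a, Scn11a, Scn1a and Scn3b, where 1.24% were called. Without captured EE replicate 1 it called Scn11a (−0.72, adjusted p = 0.0179) and Scn3b (−0.75, adjusted p = 0.00822), where 1.32% were called.

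Of the other genes of the sodium channel family, Scn2a1, Scn4a, Scn7a and Nalcn are given here, and none of them was called in either preparation with all libraries. Scn2a1, an alpha subunit of central neurons, had 48.1, 53.9 and 45.6 CPM in captured SH and 41.7, 43.8 and 39.5 CPM in captured EE, a log2 fold change of −0.24 (adjusted p = 0.217 by edgeR) with EE below SH. Scn7a, an atypical channel that senses sodium, was at 1306 ± 39.2 CPM in captured SH and 1247 ± 224.5 CPM in captured EE, with EE replicate 1 the highest of all at 1506 CPM. The leak channel gene Nalcn and the muscle channel Scn4a had log2 fold changes of −0.10 and −0.06. In the lane 3 libraries Scn7a fell by 0.21 on the log2 scale (adjusted p = 0.0378 by edgeR), and Scn2a1, Scn4a and Nalcn were not called. Against whole ganglia, Scn2a1 and Scn7a were 5.18-fold and 3.06-fold higher in captured SH neurons.

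A list of 30 partners covers genes that anchor, cluster, modify or remove sodium channels. None was called in either preparation with all libraries. In captured neurons 17 had positive and 13 negative values (median 0.06), and the groups of 14 lay apart, 9 with EE above and 5 with EE below, where 10.2% and 10.9% of all genes did so. Prkca, a kinase that phosphorylates the channels, had the smallest p and was at 603 ± 88.7 and 414 ± 38.1 CPM in SH and EE (log2 fold change −0.54, adjusted p = 0.0960 by edgeR). Ank3, the ankyrin that anchors channels at the axon initial segment and nodes, was at 1159 ± 162 and 832 ± 49.4 CPM (−0.48, adjusted p = 0.0960). Nedd4l, a ubiquitin ligase that removes channels from the membrane, was at 475 ± 62.1 and 350 ± 13.0 CPM (−0.44, adjusted p = 0.0960). The node and paranode adhesion genes Cntn1 and Nrcam and the calmodulin gene Calm3 had positive values of 0.30, 0.25 and 0.29 (adjusted p = 0.129 for each by edgeR). In the lane 3 libraries 6 of the 30 partners rose and 5 fell, where 1.88% of all genes were called higher and 2.18% lower.

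Genes were ranked by how closely their centred log2 CPM followed a channel over the 6 captured libraries, among 9978 genes with a mean of at least 8 CPM. For Scn10a the closest were Nedd4l, Pde10a, Plxnc1, Lrch1 and Igsf3, with root mean square differences of 0.035 to 0.042 on the log2 scale. Scn11a came at rank 67 (0.076) and Scn9a at rank 273 (0.116). For Scn1a the closest were Gria4, a glutamate receptor subunit, Nefl, a neurofilament, Yes1, Lrrc49 and Vamp1, a vesicle protein, with differences of 0.043 to 0.049. Scn4b came at rank 108 (0.096) and Scn8a at rank 389 (0.140). Of the 10 closest genes, Nedd4l is on the partner list, Plxnc1 on the nociceptor list, and Nefl and Vamp1 on the large-neuron list. The share of listed genes among all 9978 ranked was not counted. Genes with a similar difference between housings rank close by construction, and the lists were chosen with earlier results known. These memberships therefore add no support of their own.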

How the data were processed

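RNA-seq of whole ganglia (TruSeq mRNA, 100-cycle paired-end reads, RNA integrity above 7.5) and of captured neurons (RiboZero ScriptSeq, 100 ng, paired reads of 125 bases, integrity between 6 and 7) is described in the labels' protocols. Tools listed without roles in the submitters' processing notes include HTSeq 0.6.0, TopHat2 2.0.12 and edgeR 3.8.6, with the build mm10. The deposited tables hold read counts per gene name. The authors' FPKM values of whole ganglia were proportional to the counts per gene. The authors' second captured table, also named FPKM, holds a signal in which each library's counts were multiplied by a single factor, with no division by length. The 5 summary rows, which name no gene, were left out (no-feature reads: 47.0 to 47.6% in whole, 28.0 to 36.3% in captured libraries).

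Counts were fitted per preparation with edgeR 4.0.16 in R 4.3.3 (filterByExpr, TMM, quasi-likelihood test, Benjamini-Hochberg over all tested genes at 0.05), and the interaction over all 12 libraries. CPM are TMM-normalised. Exon lengths are from GENCODE vM21, to which 78.96% of names matched. Alternatives were DESeq2 1.42.0, limma 3.58.1, other scalings, no filter, a replicate block, lane 3 alone, length and GC offsets, an adjusted p of 0.1 and leaving out each library. The script was tested on simulated counts. Members and lists were chosen with earlier results of these data known. Text names all members, 4 other family genes, 6 partners with the smallest p, up to 4 most abundant genes per marker list, and the 5 closest genes to Scn10a and to Scn1a; Mrgprb5 and Fabp7 were named after their values were seen, as the called genes of their lists. Some genes and a sequence that this rule would name are not reported here. Replicate numbers pair the whole-ganglion libraries because each number shares a lane in the labels. Deviations of paired libraries correlated at 0.33, 0.15 and 0.10, and those of unpaired libraries at −0.33 to 0.19, so the ranges overlapped. Captured libraries share only a number. No 2 libraries of a group agreed within sampling noise (chi-square per degree of freedom 3.95 to 21.5). The common biological coefficient of variation was 0.0741 in whole and 0.121 in captured libraries.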

Additional observations from a re-analysis of the deposited data

How the results depend on the processing

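Results of the 9 subunits depended on the processing in captured neurons and in the interaction. The count of called subunits in captured neurons was 0 with all libraries by edgeR, 3 with DESeq2, 5 without a filter, 3 with limma on the second table with 1 added (with and without a minimum mean), 8 in lane 3 alone, and 0 to 8 over left-out libraries, the 8 being without EE replicate 1. The count was also 0 with limma and 0.1 added, limma on the counts, other scalings, length and GC offsets, and an adjusted p of 0.1. For the interaction it was 0, 1 with DESeq2, 4 without a filter and 0 to 2 over left-out libraries. It was 0 in whole ganglia in every fit run. The cause of these changes was not tested. Among the values of single subunits in captured neurons under alternatives, 30 gained a call, 132 kept their side and none changed direction. The replicate block called 0 subunits in each comparison (captured: Scn10a −0.44, adjusted p = 0.111 by edgeR), and in captured neurons it rests on a shared number only, with correlations of 0.089, −0.0088 and 0.12. Signs turned in whole ganglia and, for Scn3a, in the interaction (−0.18 with all libraries). In whole ganglia Scn3a became 0.0046 with DESeq2 and 0.010 with the block. Scn8a became −0.0051 with library size alone, −0.0035 without a filter, −0.0088 with limma and 1 added, −0.0095 with 0.1 added, −0.012 with length and GC offsets and −0.015 with these and the block. Over left-out libraries the whole-ganglion ranges were −0.054 to 0.17 for Scn9a, −0.042 to 0.12 for Scn10a, −0.023 to 0.13 for Scn11a, −0.12 to 0.041 for Scn1a, −0.095 to 0.066 for Scn8a and −0.20 to 0.16 for Scn3a, and the Scn3a interaction ranged from −0.33 to 0.053, the positive value being without whole-ganglion EE replicate 1. The depth of Scn3a in whole ganglia (from 46 reads) limits its precision.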
